A study of Mus musculus with 6 samples.

Results

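Genes of mitosis, the spindle checkpoint and cytokinesis were followed through cells sorted as neurons from the mouse cortex around an infarct. They were 50, taken by gene symbol from a deposited table of 24419 genes, and every symbol was found. Kinesins were left out by the choice of genes, apart from Cenpe, which encodes a kinesin motor of the kinetochore. All 6 libraries came from wild-type male C57BL/6N mice whose middle cerebral artery was occluded for 60 min and then reopened. Mice of the first group, with 3 libraries, received vehicle intravenously at 24, 48 and 72 h after onset. Mice of the second, also with 3 libraries, received 15-HETrE, a hydroxylated fatty acid, at the same times, with 600 ng of the lipid in 150 µL of PBS. Tissue was taken on day 4, dissociated with pronase, and sorted for surface Thy1 and against ACSA2, CD31, CD45 and O4. The labels give no ages and do not say whether a library is 1 animal or a pool, so p-values rest only on how these libraries vary, and that variation may be technical.

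Cells that divide switch on the mitotic genes together late in the cycle. Cyclins A and B activate Cdk1, condensins compact the chromosomes, the kinetochore ties them to the spindle, and the checkpoint holds back the anaphase-promoting complex (APC/C) until all are attached. Aurora B with its partners and the centralspindlin and anillin proteins then complete cytokinesis. Mature neurons have left the cycle and keep most of these transcripts low, whereas glial precursors, microglia, mural cells, fibroblasts and neuroblasts can divide after a stroke. A few products have roles outside division. Anillin, encoded by Anln, also sits in the myelin sheath, and Bub3 takes part in transcription and splicing.

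Promoters of such genes are known for pairing CCAAT boxes, bound by NF-Y, with a cell cycle homology region (CHR), bound by the MuvB complex with B-Myb or with pocket proteins. Windows from 250 bases before to 50 bases after the RefSeq start (GRCm38.p6) were at hand for 41 of the 50 genes, 4 of them with more than 1 window, 45 windows in all. They were searched on both strands for CCAAT and for 2 forms of the CHR, TTTGAA and TTCGAA, with overlapping matches counted. A CHR match stood in 33 of the 45 windows (73.3%), against 19.2% of all 32851 windows of that length. At least 1 CCAAT stood in 35 (77.8%, against 37.4% of all), 2 or more in 24 (53.3%, against 11.7%), and both motifs in 31 (68.9%, against 7.52%). A match describes the letters only. The 250 bases before the start are given for 6 genes, 5′ to 3′ on the gene's strand, with the motifs in capitals. Mki67, Top2a, Cdc20 and Ube2c hold both motifs, Ccnb1 holds CCAAT only, and Birc5 holds neither in this stretch.
Mki67 (chr7:135716380-135716629, minus strand): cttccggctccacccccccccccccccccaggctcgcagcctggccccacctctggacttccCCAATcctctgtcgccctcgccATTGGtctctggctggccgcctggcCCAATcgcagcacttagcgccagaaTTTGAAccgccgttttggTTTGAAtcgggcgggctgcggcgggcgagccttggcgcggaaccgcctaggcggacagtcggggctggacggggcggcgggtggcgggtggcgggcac
Top2a (chr11:99024190-99024439, minus strand): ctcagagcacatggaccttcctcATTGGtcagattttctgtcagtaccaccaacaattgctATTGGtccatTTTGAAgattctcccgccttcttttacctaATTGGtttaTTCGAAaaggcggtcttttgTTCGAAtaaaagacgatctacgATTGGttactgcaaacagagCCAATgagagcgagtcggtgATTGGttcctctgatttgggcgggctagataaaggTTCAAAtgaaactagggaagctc
Cdc20 (chr4:118437344-118437593, minus strand): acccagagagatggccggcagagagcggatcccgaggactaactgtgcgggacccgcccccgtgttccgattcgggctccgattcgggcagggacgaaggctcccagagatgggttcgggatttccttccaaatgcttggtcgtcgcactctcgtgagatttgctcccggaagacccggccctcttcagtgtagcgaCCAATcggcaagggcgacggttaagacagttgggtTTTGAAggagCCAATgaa
Ube2c (chr2:164769679-164769928, plus strand): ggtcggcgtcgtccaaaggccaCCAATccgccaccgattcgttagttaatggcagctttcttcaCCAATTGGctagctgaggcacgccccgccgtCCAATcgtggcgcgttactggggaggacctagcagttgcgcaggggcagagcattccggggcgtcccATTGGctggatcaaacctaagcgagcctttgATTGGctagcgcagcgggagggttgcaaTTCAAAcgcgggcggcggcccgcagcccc
Ccnb1 (chr13:100786487-100786736, minus strand): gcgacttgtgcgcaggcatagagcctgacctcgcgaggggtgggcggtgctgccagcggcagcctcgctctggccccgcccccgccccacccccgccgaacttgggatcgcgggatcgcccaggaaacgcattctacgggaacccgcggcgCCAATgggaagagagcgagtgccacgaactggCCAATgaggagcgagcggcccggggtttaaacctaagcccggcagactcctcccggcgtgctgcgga
Birc5 (chr11:117848987-117849236, plus strand): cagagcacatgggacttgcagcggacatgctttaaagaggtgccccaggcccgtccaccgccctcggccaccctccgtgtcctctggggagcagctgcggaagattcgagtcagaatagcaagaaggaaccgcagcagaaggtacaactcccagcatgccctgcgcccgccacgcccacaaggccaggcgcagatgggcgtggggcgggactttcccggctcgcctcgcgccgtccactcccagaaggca
The stretch of Top2a holds 4 CHR and 6 CCAAT matches, that of Mki67 2 and 3, that of Cdc20 1 and 2, and that of Ube2c 1 and 6, where a CCAAT and its mirror overlap. On the log2 scale these genes differed between groups by -1.34 (Top2a), -2.18 (Mki67), -1.60 (Cdc20), -0.82 (Ube2c), -1.76 (Ccnb1) and -1.60 (Birc5).

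Libraries are called by the numbers in their column names, where there is one, and otherwise vehicle combined, 15-HETrE combined and 15-HETrE unnumbered. They held 5405245 to 22558400 reads assigned to genes, with both combined libraries the shallowest. Pairs of libraries correlated across genes at r = 0.817 to 0.970, the highest being vehicle 1 with vehicle 2, and those 2 still differed by far more than counting noise (chi-square per degree of freedom 71.4). The sort was meant to give neurons, and 6 neuronal markers were found in every library, at a sum of 1842 to 5723 CPM (reads relative to library size, scaled by the authors). Oligodendrocyte markers, of a lineage the O4 gate was set against, summed to 13304 to 28757 CPM. In bulk libraries, fewer cells that divide and less RNA per such cell cannot be told apart.

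The design compares the lipid with vehicle, and the question here was how mitotic transcripts stood in each. The 50 genes summed to 2033 CPM in vehicle 1, 2161 CPM in vehicle 2 and 1302 CPM in vehicle combined. In 15-HETrE 1, unnumbered and combined they were 721, 931 and 641 CPM. The lowest vehicle library thus lay above the highest 15-HETrE library. Without Anln and Mki67, the most abundant members, the sums were 1500, 1535 and 860 CPM against 508, 586 and 422 CPM, in the same order of groups. The median gene of the 50 stood at 24.8, 24.0 and 15.3 CPM under vehicle and at 6.40, 6.80 and 5.34 CPM under 15-HETrE.

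Gene by gene, 49 of the 50 had a mean of at least 1 CPM and were tested with limma on log2(CPM + 1), a scale that understates the change of low genes. Cdkn3, a phosphatase acting on Cdk1, fell under that level, with 57, 60 and 0 reads in vehicle and 12, 0 and 0 in 15-HETrE libraries. Of the 49, Cdc25c and Gtse1 had a 15-HETrE mean under 1 CPM and so were kept by their vehicle levels. All 49 log2 fold changes (15-HETrE minus vehicle) were negative, where 49% of all 14523 genes tested had a negative one. They ran from -3.52 to -0.02 with a median of -1.60, beside 0.02 over all genes tested. Of the 49, 36 lay under -1, against 9.06% of all genes, and 13 lay between -1 and 0. For 26 of the 49 every 15-HETrE library lay under every vehicle library, against 8.32% of all genes, and for 0 every one lay above, against 6.84%.

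No member passed at an adjusted p of 0.05 in limma, 0 of 49 lower and 0 higher, and the background in each direction was 0%. The smallest adjusted p was 0.131, for Mki67, and the median over the members was 0.489 (limma). At an unadjusted p under 0.05, 26 of 49 were lower, against 5.23% of all genes, and 0 were higher, against 4.27%. On recovered reads, edgeR's quasi-likelihood test called 0 members as well, with a background of 0%, and had 23 at an unadjusted p under 0.05 on the lower side, against 4.84%. DESeq2 called 7 members lower, against 0.898% of genes, and 0 higher, against 0.242%: Mki67, Aspm, Gtse1, Bub1b, Tpx2, Ncapg and Smc4, with adjusted p from 5.07e-09 to 0.0443. At an unadjusted p under 0.05 DESeq2 had 28 lower, against 6.1%. Without both combined libraries limma called 8 members lower, against 1.38% of genes, namely Mki67, Smc4, Ccna2, Cdk1, Cenpe, Dlgap5, Gtse1 and Mad2l1, with adjusted p of 0.0264 to 0.049. That fit set vehicle 1 and vehicle 2, which share a column-name prefix, against 15-HETrE 1 and 15-HETrE unnumbered, which do not. Without vehicle combined alone, limma called Mki67, Smc4 and Cenpe (0.743% of genes). With a weight per library limma called 40 members lower, against 9.41% of genes.

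**Figure D1:**
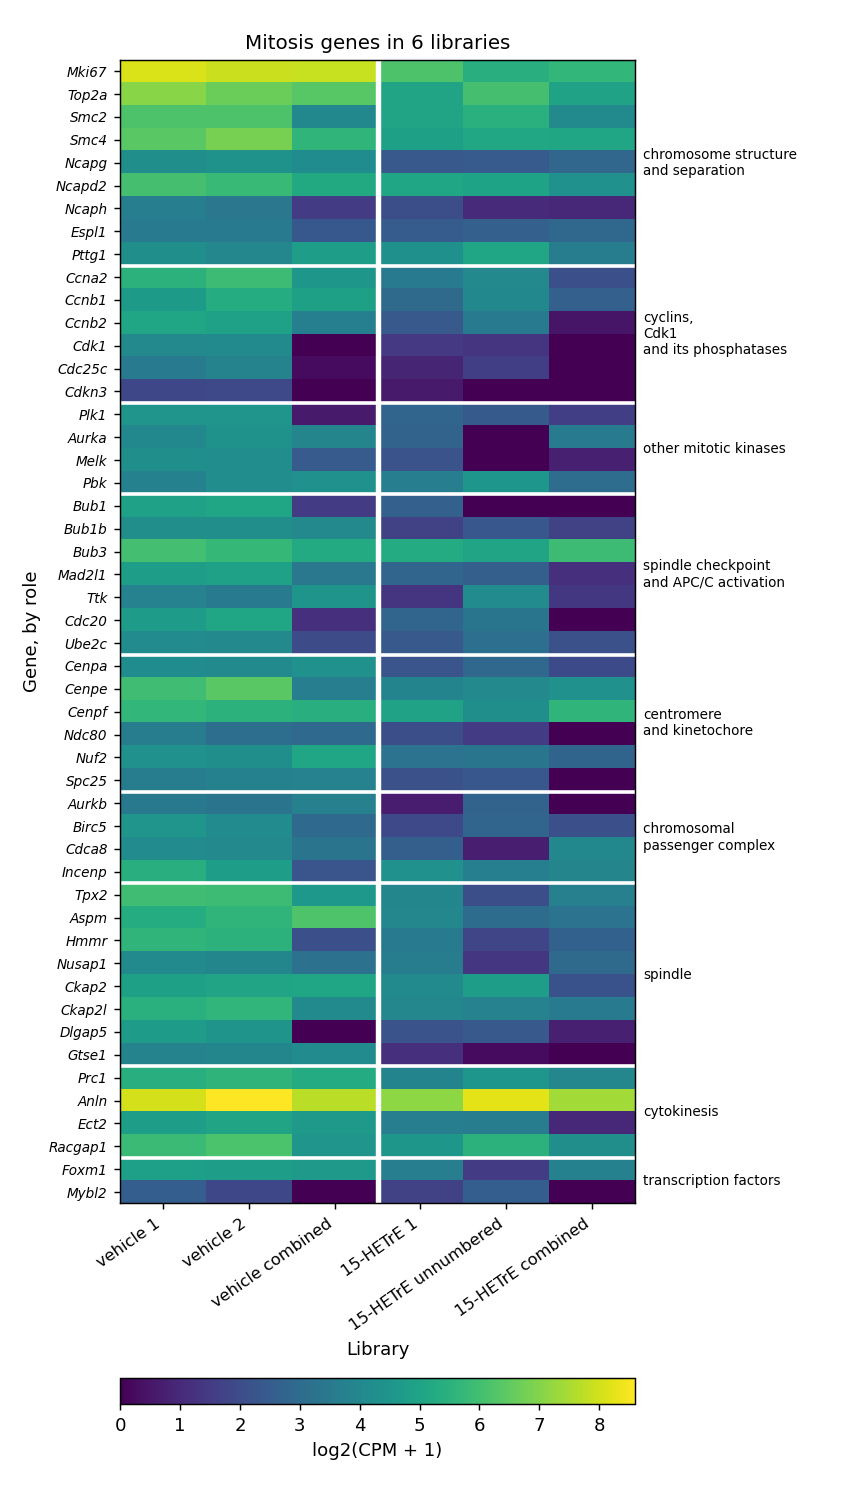
Level of each of the 50 genes, as log2(CPM + 1), in the 3 vehicle libraries (left of the white bar) and the 3 15-HETrE libraries (right), ordered by role. Vehicle 1 and vehicle 2 are the brightest columns for most genes, 15-HETrE combined holds 10 genes at 0 reads, and Anln is bright in all 6 columns.

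**Figure D2:**
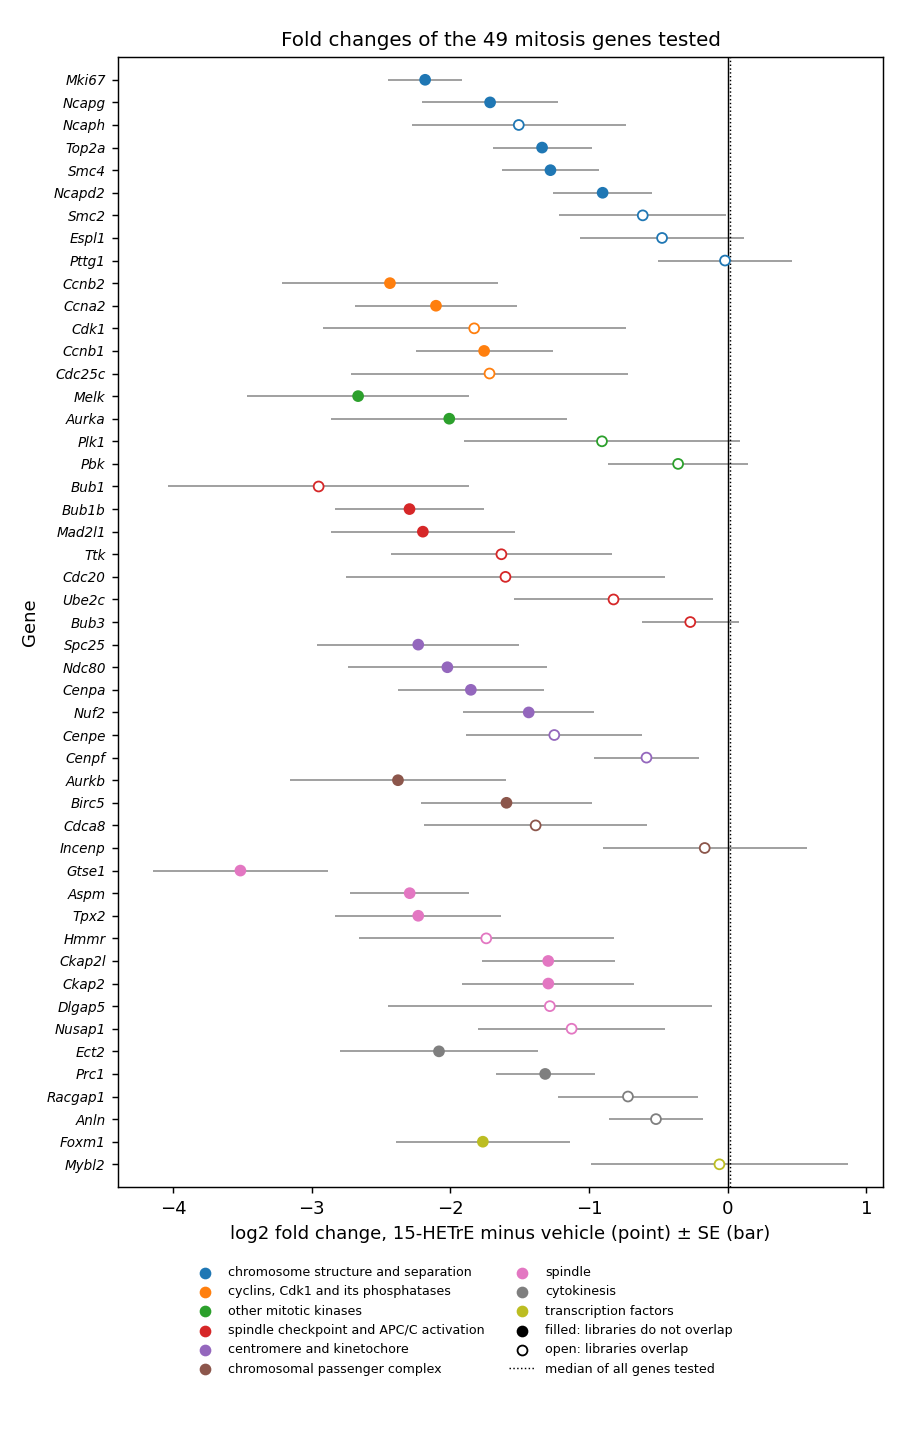
Points give the log2 fold change (15-HETrE minus vehicle) of the 49 genes tested and bars its standard error, coloured by role and filled where the libraries of the groups do not overlap. All points lie left of 0, from Gtse1 at -3.52 to Pttg1 at -0.02, and the dotted line marks the median of all genes at 0.02.

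Among genes of chromosome structure, Mki67 (chromosome 7, 135689784 to 135716361, GRCm38), which coats mitotic chromosomes and marks dividing cells, had the smallest p of the members. In the order vehicle 1, 2 and combined it stood at 273, 240 and 233 CPM, and in the order 15-HETrE 1, unnumbered and combined, kept below, at 72.9, 41.7 and 51.2 CPM. All 3 vehicle libraries thus lay far above every 15-HETrE library (log2 fold change -2.18, SE 0.27, adjusted p 0.131, limma). Top2a, the topoisomerase that untangles sister chromatids, had 133, 99.7 and 81.6 CPM against 31.8, 66.5 and 30.1 CPM. Its groups did not overlap, with 15-HETrE unnumbered nearest to the vehicle libraries.

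The condensin subunits are the rings and clamps that compact chromosomes. Smc4 (chromosome 3, 69004738 to 69034623) had 84.2, 113 and 48.6 CPM under vehicle and 28.3, 34.0 and 31.9 CPM under 15-HETrE, where the latter lay within a narrow range (log2 fold change -1.28, SE 0.35, adjusted p 0.394, limma). Its partner Smc2 had 71.5, 72.8 and 15.1 CPM against 31.3, 43.1 and 15.9 CPM, so that vehicle combined was the lowest of the 6. Ncapg and Ncapd2, of condensin I, were lower without overlap, at -1.71 and -0.90, and Ncaph was lower with overlap, at -1.51. The pair that ends sister cohesion differed least in this class. Espl1, separase, had a log2 fold change of -0.47. Pttg1, securin, had 18.3, 14.7 and 26.4 CPM against 18.8, 32.0 and 11.2 CPM; it was the only member whose mean CPM was higher in 15-HETrE libraries, 20.7 ± 10.5 against 19.8 ± 6.03 (SD, n = 3 per group). Over the 9 genes of this class the median log2 fold change was -1.28, and 5 did not overlap, beside 8.32% of all genes on the lower side.

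Cyclins and Cdk1 form the engine of mitotic entry. Ccna2 (chromosome 3, 36564865 to 36572150), cyclin A, had 45.3, 58.5 and 22.7 CPM under vehicle and 10.8, 15.4 and 3.24 CPM under 15-HETrE. Ccnb1 (chromosome 13, 100778650 to 100786570), cyclin B1, had 24.6, 39.0 and 28.8 CPM against 6.78, 15.2 and 5.27 CPM. Both were lower in each 15-HETrE library than in any vehicle library, with log2 fold changes of -2.10 (SE 0.59) and -1.76 (SE 0.49) and an adjusted p of 0.394 each (limma). Ccnb2, cyclin B2, did so as well, at -2.44. Cdk1, their kinase, was abundant in 2 vehicle libraries and missing from the third, with 336, 367 and 0 reads in vehicle and 37, 24 and 0 reads in 15-HETrE libraries. A count of 0 in vehicle combined allows up to 0.540 CPM, and up to 0.405 CPM in 15-HETrE combined, for counting error only. Cdc25c, the phosphatase that activates Cdk1, followed the same layout with 231, 299 and 1 reads against 19, 34 and 0.

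The other mitotic kinases showed wide groups. Aurka, Aurora A of the spindle poles, had 15.1, 19.9 and 14.2 CPM under vehicle and 5.65, 0 and 10.8 CPM under 15-HETrE. Its groups did not overlap, and the 0 comes from 15-HETrE unnumbered, a library of 16218335 reads, where it allows up to 0.179 CPM. Melk, a kinase of proliferating and progenitor cells, was also at 0 reads there, with a log2 fold change of -2.67 and no overlap. Plk1, the Polo kinase, had 452, 472 and 3 reads in vehicle against 132, 74 and 15, so that vehicle combined lay under all 15-HETrE libraries. Pbk, a mitotic MAP kinase kinase, had 12.7, 17.5 and 19.4 CPM against 11.8, 21.8 and 7.43 CPM, with 15-HETrE unnumbered the highest of all 6.

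Checkpoint genes differed among themselves in how far the groups stood apart. Bub1b (BubR1, chromosome 2) had 18.0, 18.2 and 15.5 CPM under vehicle and 2.19, 4.06 and 2.16 CPM under 15-HETrE. The 3 vehicle libraries lay close together and well above the others (log2 fold change -2.30, SE 0.54, adjusted p 0.358, limma). Mad2l1, which binds and holds Cdc20, had 26.6, 29.3 and 9.89 CPM against 5.92, 5.13 and 1.22 CPM, again without overlap. Bub1, its scaffold kinase, had 631, 723 and 10 reads against 114, 0 and 0, and its fold change of -2.95 carried a standard error of 1.08. Ttk (Mps1), which starts the checkpoint signal, had 13.1, 10.3 and 20.7 CPM against 1.50, 16.6 and 1.62 CPM: 15-HETrE unnumbered stood among the vehicle libraries. Bub3, with roles outside mitosis, had 64.8, 52.2 and 36.9 CPM against 38.3, 31.1 and 59.1 CPM, and its groups overlapped (log2 fold change -0.27, adjusted p 0.826, limma). Cdc20 and Ube2c, the activator of the APC/C and the enzyme that hands it ubiquitin, were higher in vehicle 1 and 2 than in all 15-HETrE libraries, and low in vehicle combined, at 1.26 and 2.88 CPM.

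At the centromere, the histone variant Cenpa had a log2 fold change of -1.85 without overlap. The Ndc80 complex, which grips microtubule ends, was measured through 3 of its subunits. Ndc80, Nuf2 and Spc25 had log2 fold changes of -2.02, -1.44 and -2.23, and none of the 3 overlapped between groups. Over the 6 genes of this class 4 did not overlap, beside 8.32% of all genes on the lower side. Ndc80 and Spc25 were at 0 reads in 15-HETrE combined. The groups of the large kinetochore proteins Cenpe and Cenpf overlapped, at log2 fold changes of -1.25 and -0.59. Without both combined libraries Cenpe stood at -2.21. Cenpe had 61.5, 82.7 and 11.7 CPM in vehicle against 13.6, 15.7 and 19.2 CPM, with vehicle combined the lowest of the 6. Cenpf had 50.7, 45.2 and 41.2 CPM against 30.1, 18.6 and 47.8 CPM, with 15-HETrE combined inside the vehicle range.

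In the chromosomal passenger complex, 2 of 4 genes were lower without overlap, beside 8.32% of all genes. Aurkb, its kinase Aurora B, and Birc5, survivin, were lower without overlap, at -2.38 and -1.60. Cdca8 (borealin) had 16.7, 15.7 and 8.81 CPM under vehicle and 5.10, 0.657 and 15.1 CPM under 15-HETrE. Its groups overlapped, at a log2 fold change of -1.39, near that of Birc5. Incenp, the scaffold, had 41.0, 27.4 and 3.78 CPM against 19.2, 12.2 and 14.2 CPM, with vehicle combined under all others (log2 fold change -0.17, adjusted p 0.954, limma). The direction of Incenp turned to 0.45 without vehicle 1 and to 0.17 without vehicle 2.

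Spindle genes included the member with the lowest fold change. Gtse1 (chromosome 15), a microtubule-binding protein of G2 and mitosis, had 13.5, 14.5 and 16.5 CPM under vehicle and 1.23, 0.179 and 0 CPM under 15-HETrE. The vehicle libraries lay close together, and the 15-HETrE libraries held 27, 3 and 0 reads (log2 fold change -3.52, SE 0.63, adjusted p 0.334, limma). Aspm (chromosome 1), which focuses spindle poles, had 38.7, 48.2 and 74.3 CPM against 14.8, 7.16 and 8.65 CPM, and here vehicle combined was the highest library. Tpx2, which activates Aurora A on microtubules, had 60.9, 59.0 and 23.2 CPM against 14.5, 3.16 and 12.4 CPM, a log2 fold change of -2.23. Aspm had a fold change of -2.29 (SE 0.43, adjusted p 0.334, limma). Ckap2 and Ckap2l were lower without overlap, at -1.29 each, though 15-HETrE unnumbered, at 27.2 CPM for Ckap2, came near the 28.5 CPM of vehicle 1. Hmmr and Dlgap5 were high in vehicle 1 and 2 and low in vehicle combined, with 18 and 0 reads there. Nusap1 had a log2 fold change of -1.13 with overlap.

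In cytokinesis, Prc1, which bundles midzone microtubules, had 41.8, 47.2 and 37.9 CPM under vehicle and 13.6, 21.7 and 14.7 CPM under 15-HETrE, without overlap (log2 fold change -1.32, SE 0.36, adjusted p 0.394, limma). Ect2, the exchange factor that activates RhoA at the cleavage furrow, was lower without overlap too, at -2.08. Racgap1, the centralspindlin subunit that recruits it, had 57.4, 70.6 and 21.2 CPM against 22.6, 45.5 and 18.0 CPM. Its groups overlapped through vehicle combined. Anln was the most abundant member, with 260, 386 and 209 CPM against 140, 303 and 168 CPM. The groups of Anln overlapped. In the same order, oligodendrocyte markers summed to 13304, 20203 and 21026 CPM against 14917, 28757 and 19535 CPM. Anln was highest in vehicle 2, and that sum was highest in 15-HETrE unnumbered. The part of oligodendrocytes in the level of Anln was not tested. Of the transcription factors, Foxm1, an activator of G2 and mitosis genes, had 27.7, 26.7 and 23.9 CPM against 11.7, 1.91 and 12.6 CPM without overlap. Mybl2 (B-Myb) had few reads, 106, 59 and 0 reads against 49, 83 and 0.

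Levels were set against each other only per kilobase of exon. The mean over the 6 libraries was highest for Anln, at 27.0 CPM per kilobase, then Mki67 at 15.1, Smc4 at 10.9, Pttg1 at 10.1 and Ccnb2 at 9.63. The lowest were Cdkn3, at 0.415, Mybl2, at 0.532, and Ndc80, at 0.781 CPM per kilobase. In vehicle libraries Mki67 and Anln stood at 24.7 and 31.4 CPM per kilobase, and in 15-HETrE libraries at 5.50 and 22.5. The share of Mki67 in the summed level was 13.4%, 11.1% and 17.9% in vehicle and 10.1%, 4.48% and 7.99% in 15-HETrE libraries, so its groups did not overlap on that scale either.

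Vehicle combined stood apart from the other vehicle libraries. It lay under both of them for 38 of the 49 tested members, against 49.9% of all genes, and 15-HETrE combined was the lowest of all 6 libraries for 22 of 49, against 20.8%. Vehicle 1 and vehicle 2 lay above every 15-HETrE library for 42 of the 49 tested genes, against 20.4% of all genes. Vehicle combined did so for 27 of the 49, against 27.5%, and lay under every 15-HETrE library for 7, against 33.8%. Those 7 were Smc2, Espl1, Plk1, Ube2c, Cenpe, Incenp and Dlgap5. Without vehicle combined, the groups did not overlap for 43 of the 50 genes then tested, against 20.3% of all genes, leaving out Pttg1, Pbk, Bub3, Ttk, Cenpf, Anln and Mybl2. Vehicle 1 and 2 differed by a median of 0.19 on the log2 scale over the 50 genes, and vehicle combined differed from their mean by a median of -0.81.

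The column names carry a shared prefix for vehicle 1, vehicle 2 and 15-HETrE 1, another for 15-HETrE unnumbered, and the word combined for the last pair. The labels do not say what the prefixes stand for, nor whether runs, animals or libraries were combined in the last pair, so what 3 libraries per group count as replicates is not known. Within the first prefix, 48 of the 49 tested members were lower in 15-HETrE, against 49.7% of all genes, with a median difference of -1.66. Within the combined pair, 36 of 49 were lower, against 45%, with a median of -0.88. In both, 35 of 49 were lower, against 26.3% of all genes. Mki67 differed by -1.80 and -2.17, Gtse1 by -2.75 and -4.13, and Bub1b by -2.59 and -2.38. Incenp differed by -0.78 and 1.67, and Plk1 by -1.66 and 0.98. With the prefix as a term in limma, which leaves 15-HETrE unnumbered with a term of its own and so out of the contrast, 48 of 49 members were negative and 0 passed, against 0.0482% of all genes.

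**Figure D3:**
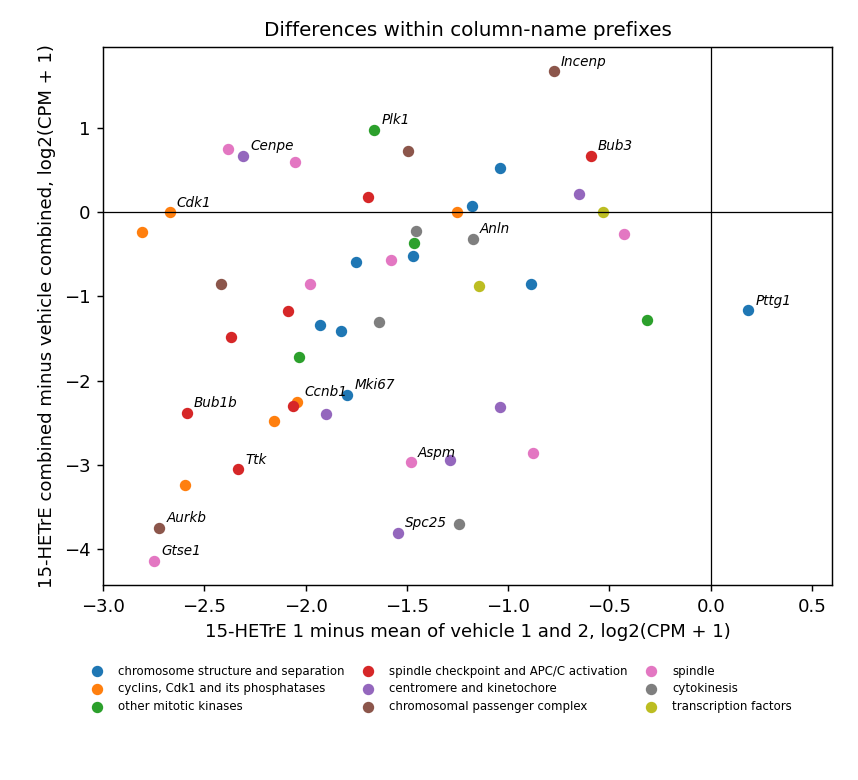
Each point is 1 of the 50 genes, placed by its difference within the first prefix (horizontal) and within the combined pair (vertical), both on the log2(CPM + 1) scale and coloured by role. Pttg1 alone lies right of 0, and Incenp, at 1.67, is the highest point on the vertical axis.

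Other genes of division were taken as 6 lists with 105 genes outside the 50, all of them tested. By limma's adjusted p, 0 were called in either direction, with a smallest adjusted p of 0.358. At an unadjusted p under 0.05, 19 of 105 were lower and 1 was higher, beside 5.23% and 4.27% of all genes. Without overlap 28 were lower and 1 higher, beside 8.32% and 6.84%. Kinetochore genes outside the 50 had a median log2 fold change of -0.74, with 24 of 30 negative and 10 lower without overlap. Among them Casc5 (Knl1), the platform for the Bub proteins, had 34.2, 49.2 and 55.0 CPM under vehicle and 11.8, 13.8 and 2.57 CPM under 15-HETrE, and Knstrn, of the spindle, had 17.6, 25.5 and 14.4 CPM against 3.96, 3.28 and 0 CPM. Neither overlapped between groups. Genes of mitotic entry and related steps had a median of -0.96, with 22 of 29 negative. Cep55, which acts at abscission, had a log2 fold change of -2.28 and Cks2, a subunit bound to Cdk1, one of -2.79.

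By their medians, the APC/C, cohesin, condensin II and MuvB lists lay nearer to the median of all genes than the 2 lists above. The APC/C list, of core subunits with Fzr1, Ube2s and Fbxo5, had a median of -0.24 with 12 of 17 negative. Its Cdc23 and Ube2s, with the smallest p, had log2 fold changes of -0.67 and -0.60, and Fbxo5 had the lowest, -1.29, with overlap. Cohesin had a median of -0.15, with 11 of 15 negative. Inside that list the mitotic guardians of cohesion Sgol2a and Sgol1 (Sgo2a and Sgo1) stood at -2.27 and -1.11, both without overlap. The condensin II subunits Ncapg2, Ncaph2 and Ncapd3 stood at -0.86, -0.31 and 0.02. The MuvB and pocket protein list had a median of 0.18 with 4 of 11 negative. Its Rbbp4 and Rbl1 had log2 fold changes of -0.56 and -0.84. Differences between these lists and the 50 genes were not tested.

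**Figure D4:**
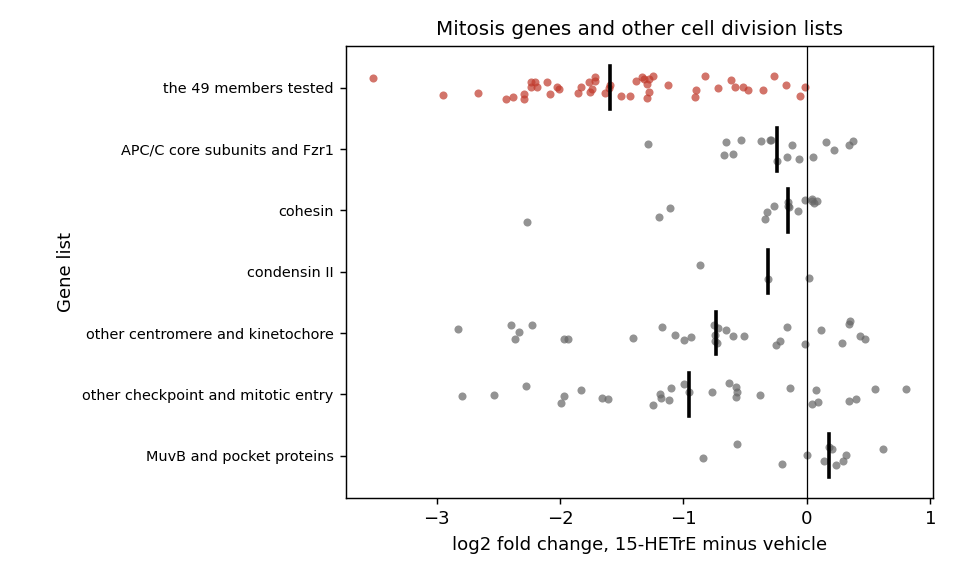
Each dot is a gene's log2 fold change (15-HETrE minus vehicle), with the 49 tested members in red, the 6 other lists in grey, and a black bar at each median. The members' median lies at -1.60 and that of the MuvB and pocket proteins at 0.18.

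Markers of other cell types were summed beside the 50 genes in each library. Pericyte markers were the only ones of 10 lists with a sum that, like that of the mitotic genes, was lower in every 15-HETrE library. They summed to 868, 1020 and 999 CPM in vehicle against 347, 494 and 546 CPM, with 6 of 6 genes negative and none at 0. Of the 6, 4 were lower without overlap, beside 8.32% of all genes. The groups of Cspg4, also a precursor marker, overlapped, at 197, 239 and 481 CPM against 245, 159 and 277 CPM. Those of Anpep overlapped too, with 1 read in vehicle combined. Fibroblast markers, 6 of 6 negative, summed to 9046, 7118 and 1446 CPM against 1158, 1731 and 1248 CPM. Pdgfra, also a precursor marker, made up most of the sum in vehicle combined (1382 CPM), 15-HETrE 1 (1035 CPM) and 15-HETrE combined (1228 CPM). Col1a1, Col1a2, Col3a1, Dcn and Lum each stood at only 0.180 to 31.8 CPM in vehicle combined. In 15-HETrE unnumbered they stood at 71.7 to 421 CPM. The fibroblast sum was thus high in vehicle 1 and 2 and lower in vehicle combined. There the sum of the 50 mitotic genes was also the lowest of the vehicle libraries, at 1302 CPM. The 2 sums did not keep the same order in all libraries. 15-HETrE unnumbered had a higher fibroblast sum than vehicle combined (1731 against 1446 CPM) and a lower mitotic sum (931 against 1302 CPM). Endothelial markers, 4 of 6 negative, summed to 88.3 to 199 CPM under vehicle and 31.0 to 94.8 CPM under 15-HETrE, with Tek at 0 in 15-HETrE unnumbered. Microglia and macrophage markers had their highest sum in vehicle combined, 99.6 CPM, against 13.9 to 62.7 CPM elsewhere, with 1 of 5 tested genes negative and Aif1 at 0 in vehicle combined.

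Oligodendrocyte precursor markers overlapped between groups, at 2177 to 4268 CPM under vehicle and 2343 to 3550 CPM under 15-HETrE, with 2 of 6 negative and none at 0. Neuroblast markers summed to 189 to 230 CPM and 204 to 256 CPM, with 1 of 5 tested genes negative and Eomes at 0 in all libraries but vehicle 1. Of those 5, Dcx and Dlx1 were higher without overlap and 0 were lower, beside 6.84% and 8.32% of all genes. Of the lymphocyte markers Cd3e and Cd3g were at 0 in all 6 libraries, and the list summed to at most 6.22 CPM. Neuronal markers had 1 of 6 negative, with sums of 1842 to 3088 CPM under vehicle and 2968 to 5723 CPM under 15-HETrE. Of those 6, Rbfox3 and Slc17a7 were higher without overlap and 0 were lower, beside the same shares of all genes. Astrocyte markers had 1 of 6 negative, at 598 to 7216 and 1273 to 19702 CPM, and oligodendrocyte markers 0 of 6, at 13304 to 21026 and 14917 to 28757 CPM. Pdgfra, Cspg4 and Tubb3 stand on 2 lists each. Tubb3, at a log2 fold change of -0.32, is the negative gene of both the neuronal and the neuroblast list. The part of any of these cell types in the mitotic transcripts was not tested.

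**Figure D5:**
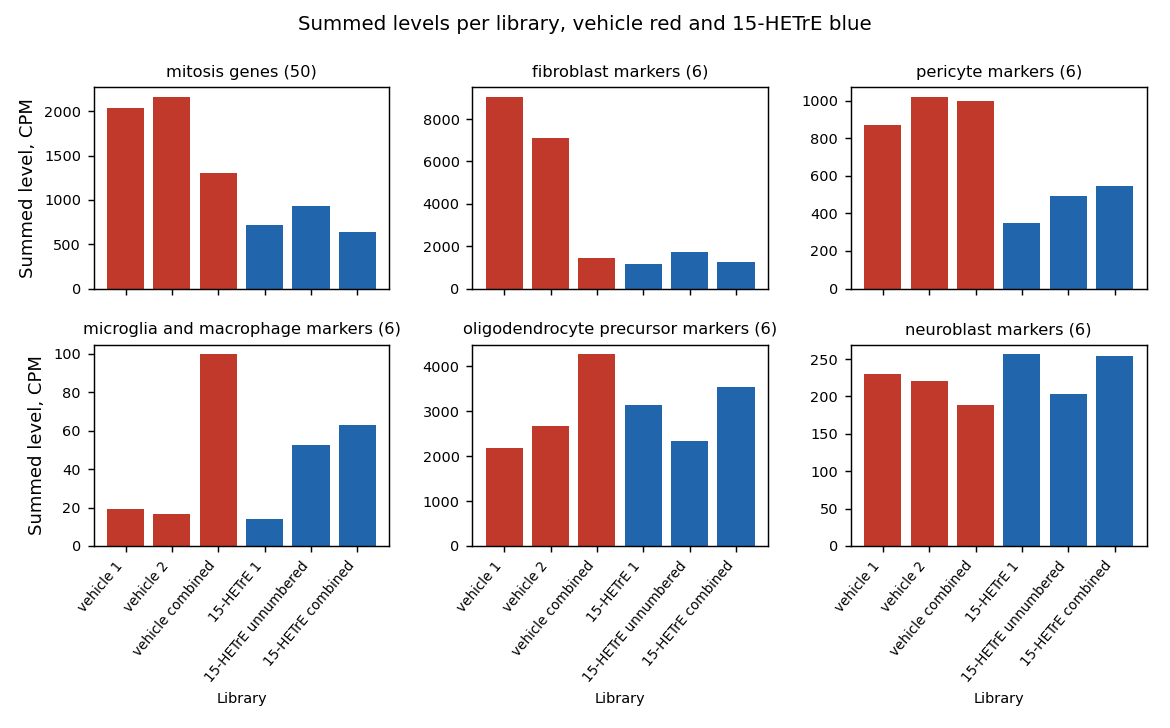
Bars give the summed CPM per library of the 50 mitotic genes and of 5 marker lists of 6 genes each, vehicle in red and 15-HETrE in blue, each panel on its own scale from 0. The mitotic and pericyte sums are lower in all 3 15-HETrE libraries, and the fibroblast sum is high in vehicle 1 and vehicle 2 only. Pdgfra, also a precursor marker, makes up most of the fibroblast bar in vehicle combined, 15-HETrE 1 and 15-HETrE combined.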

How the data were processed

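RNA of sorted cells was sequenced in 6 libraries, made with a low-input kit per the labels' protocols. The build was mm10 and the tools named are Trimmomatic, HISAT2, featureCounts and edgeR, per the submitters' processing notes, without versions. The deposited values are a signal, CPM multiplied by a factor for each library, since column sums run from 960982 to 1080354. The design assumed plain CPM, and its log2 test was kept. All values (100%) were whole multiples of the smallest value in their column, within 1e-04 reads, and gave the reads used for edgeR 4.0.16 and DESeq2 1.42.0. Columns were assigned by name, with 0 left over; 3 carry only their group. Depth was 5405245 to 22558400 reads. A floor is 3 reads, without molecular identifiers, so it covers counting error only.

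The 14523 genes whose mean reached 1 CPM were fitted with limma 3.58.1 (R 4.3.3) on log2(CPM + 1), group as the only term, variance trend, two-sided, at an adjusted p of 0.05 (Benjamini-Hochberg, all genes fitted). Standard deviations are over 3 libraries. Members and lists were chosen with earlier results of these data known. Genes given in full are, per role, the 2 with the highest mean, the 10 with the smallest p, any with a positive fold change and any under the filter; all others named were chosen after their values were seen. Of other lists the 2 with the smallest p were taken, and 5 symbols were matched through RefSeq synonyms. Lengths and positions are from GENCODE M21 (GRCm38, named mm10), windows from RefSeq GRCm38.p6. Alternatives were pseudocounts, filters, scalings, weights, a robust trend, tools, leaving out libraries and a prefix term. The scripts were tested on simulated counts.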

Additional observations from a re-analysis of the deposited data

How the results depend on the processing

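Every member tested kept a negative sign under the pseudocounts of 0.5, 0.1 and 5, the filters, the 3 rescalings and the robust trend, and the median log2 fold change stayed between -1.86 and -1.12 over all 20 alternatives. Counts of calls did not. With library weights limma called 1366 genes lower and 1059 higher, 40 members lower, and 44 members had an unadjusted p under 0.05, against 15.2% of all genes; vehicle combined then had the least weight, 0.206. DESeq2 called 130 genes lower and 35 higher, 7 of them members. Without both combined libraries limma called 201 genes lower and 3 higher, with 8 members lower, 40 at an unadjusted p under 0.05 (9.73% of all genes) and 45 without overlap (25.8%). With the prefix term it called 7 lower and 1 higher. Leaving out 1 library at a time gave 0 to 108 genes lower, 0 to 2 higher, 0 to 3 members lower and 26 to 43 members without overlap, the highest of each without vehicle combined. Over all genes, 10.4% to 20.3% then lay lower without overlap. The cause was not tested, beyond fewer libraries or other weights.

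Reversals of sign concerned 4 genes. Pttg1 went to 0.23 with weights, 0.071 in edgeR, 0.059 in DESeq2, 0.20 without vehicle combined, 0.34 without 15-HETrE combined and 0.56 without both; leaving out 1 library gave -0.38 to 0.34. Mybl2 went to 0.49 without vehicle 1, 0.13 without vehicle 2 and 0.65 without 15-HETrE combined, with -0.80 as the lowest when 1 library was left out. Incenp went to 0.45 without vehicle 1, 0.17 without vehicle 2 and 0.27 with the prefix term, and to -1.12 without vehicle combined. Pbk went to 0.10 without both combined libraries. No paired analysis was possible because the columns of the groups share only 1 replicate number; the prefix term above is a term for the column-name prefix and pairs no replicate numbers. Depth limits the combined libraries most, where a gene with no read can lie at up to 0.540 CPM under vehicle and 0.405 CPM in 15-HETrE.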
